A study of Mus musculus with 44 samples.

Results

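Genes of renal potassium and chloride channels were followed in mouse kidney RNA: Kcnj1, Kcnj10, Kcnj15, Kcnj16, Kcnma1, Kcne1, Bsnd and Clcn5. These 8 genes, picked by name, are 8 of the 24733 genes with any value above 0. Polyadenylated RNA came from kidneys of 129SV mice aged 8 to 12 weeks under night-restricted feeding. The 12 libraries labelled WT and the 12 labelled KO cover zeitgeber time (ZT) 0, 4, 8, 12, 16 and 20, with replicates A and B at each time in each genotype. The series gives the KO as Bmal -/-, a loss of Bmal1 (gene Arntl), the activator of the circadian clock. The labels used here give neither the sex of the mice nor how the gene was disrupted, and they do not say whether replicates A and B were separate animals, so p-values measure the spread between these samples. Levels are in TPM, kallisto's estimate of transcript abundance per length scaled to a fixed total in each library, which keeps no sequencing depth.

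The kidney tubule returns most filtered salt to the blood and sets how much potassium leaves in the urine. In the thick ascending limb, the transporter Slc12a1 takes up sodium, potassium and chloride together; potassium recycles into the urine through ROMK (Kcnj1), and chloride leaves on the blood side through channels that need the accessory subunit barttin (Bsnd). In the distal convoluted tubule, Kcnj10 and Kcnj16 form a joint basolateral potassium channel. Kcnj15 belongs to the same inward rectifier family, Kcne1 is an accessory subunit of the voltage-gated channel Kcnq1, Kcnma1 is the pore of the large-conductance BK channel, and Clcn5 exchanges chloride for protons in endosomes of the proximal tubule.

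Kcnj1 lies at chr9:32372493-32399197 on the plus strand of GRCm38 (the coordinates of mm10), and the deposited table holds 2 of its transcripts. They use different first exons whose starts lie 21492 bp apart and share the last exon, which holds the whole coding sequence of Kcnj1-201. The window of Kcnj1-202 lies in an intron of Kcnj1-201. The 250 bases that end at each annotated first base are shown because the 2 transcripts have separate levels in these data, as estimated by kallisto. The bases are from the RefSeq GRCm38.p6 genome, plus strand, 5′ to 3′, and the capital marks the first transcribed base.
Kcnj1-201, chr9:32372244-32372493: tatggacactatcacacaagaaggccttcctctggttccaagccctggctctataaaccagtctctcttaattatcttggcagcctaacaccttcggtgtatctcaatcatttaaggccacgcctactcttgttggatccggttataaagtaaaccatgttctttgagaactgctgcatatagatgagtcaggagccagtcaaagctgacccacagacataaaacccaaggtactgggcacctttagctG
Kcnj1-202, chr9:32393736-32393985: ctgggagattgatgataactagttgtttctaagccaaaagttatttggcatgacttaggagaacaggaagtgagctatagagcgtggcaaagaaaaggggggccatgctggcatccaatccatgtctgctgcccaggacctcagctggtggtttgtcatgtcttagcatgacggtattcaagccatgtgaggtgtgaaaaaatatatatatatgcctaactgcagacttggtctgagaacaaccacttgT
Neither window holds the E-box CACGTG, the D-box TTANGTAA or the REV-ERB/ROR element TAGGTCA on either strand.

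Across all genes, 2 KO libraries stood apart. In the library labelled KO at ZT4, replicate A, the clock genes Cry1 and Nr1d1 were at 1.035 and 23.8 TPM, where the other KO libraries held 11.5 to 17.8 and 1.24 to 3.46 TPM and the WT libraries 0.551 to 6.64 and 1.42 to 44.3 TPM. Both values lie in the WT range and outside that of the other KO libraries, so these genes go against the label of this library, and each KO mean and the ZT4 comparison include it as labelled. Its Arntl level of 6.28 TPM lay within the WT range and just above the 4.19 to 6.20 TPM of the other KO libraries. In the library labelled KO at ZT12, replicate A, the Y-linked gene Ddx3y was at 0.0990 TPM against 11.7 to 17.5 TPM in the other 23 libraries. Arntl itself averaged 4.97 ± 4.76 TPM (SD, n = 12) in WT, with a fitted WT rhythm of 4.99 log2 units from trough to peak, and 5.44 ± 0.654 TPM (SD, n = 12) in KO, with a fitted KO rhythm of 0.20 that did not pass the test (adjusted p = 0.796, limma). Results below use all libraries, and the main ones are also given without these libraries. Several sex-biased kidney genes also differed between the genotypes: Kap (KO minus WT log2 -0.81) and Slco1a1 (-4.22) are textbook male-high genes, and Slc7a12 (3.99) is female-high. In KO ZT4 replicate A, Kap was at 35748 TPM, Slco1a1 at 75.2 and Slc7a12 at 2.35. The WT libraries held 30915 to 40646, 48.3 to 157.0 and 1.35 to 16.4 TPM. Each value of this KO library thus lay in the WT range, and each lay outside the range of the other KO libraries. The part of the sex-biased genes in the channel results was not tested.

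Kcnj1, Kcnj10, Kcne1 and Bsnd were higher in KO, Kcnj15 was lower, and Kcnj16 and Clcn5 did not pass the test. Thus 5 of the 7 members tested were called (limma on log2(TPM + 0.1) with time as a factor, adjusted p under 0.05 over 12874 genes), while 60.9% of all genes tested were called: 50.9% higher and 10.0% lower in KO. The median KO minus WT log2 difference of all genes was 0.15, and a share of calls near that background is not a result about channels as such. Under median-of-ratios scaling, which brings that median to 0.00, the shares were 21.5% higher and 22.6% lower, and the same 5 members kept their direction and their calls.

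Kcnj1 showed the largest log2 difference of the 7 members tested. In WT it ran from 46.2 through a median of 59.5 to 76.2 TPM, and in KO from 56.0 through 106.9 to 120.2 TPM. The values of 11 of the 12 KO libraries lay above the highest WT library, and KO at ZT4 replicate A was the exception at 56.0 TPM. The remaining KO libraries began at 77.0 TPM. With all libraries the KO minus WT log2 difference was 0.76 (SE 0.0747, adjusted p = 3.91e-07, limma), with KO higher at 6 of 6 times. It was 0.60 under median-of-ratios scaling and 0.79 without both libraries that stood apart. Of all genes tested, 8.34% had every KO library above every WT library once KO ZT4 replicate A was left out.

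Bsnd, the barttin gene, averaged 18.6 ± 2.42 TPM in WT and 26.0 ± 2.91 TPM in KO (SD, n = 12 each). Its lowest, median and highest WT values were 15.2, 18.8 and 21.7 TPM, against 20.8, 26.2 and 30.7 TPM in KO. Here too 11 of 12 KO libraries exceeded every WT library, and the exception at 20.8 TPM was again KO ZT4 replicate A. The difference was 0.48 log2 units (SE 0.0503, adjusted p = 5.12e-07, limma).

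Kcnj10 averaged 11.3 ± 1.56 TPM in WT and 15.9 ± 2.61 TPM in KO (SD, n = 12 each), a log2 difference of 0.49 (SE 0.0560, adjusted p = 1.17e-06, limma). The groups overlapped: WT reached 14.2 TPM and 9 of 12 KO libraries were above that. Kcne1, at 6.35 ± 1.37 and 9.76 ± 1.85 TPM, differed by 0.62 log2 units (SE 0.0999, adjusted p = 3.63e-05), and 8 of 12 KO libraries exceeded the highest WT value of 8.91 TPM. Both genes were higher in KO at 6 of 6 times.

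Kcnj15 went the other way. It ran from 149.5 through 178.0 to 232.1 TPM in WT and from 124.8 through 154.3 to 180.1 TPM in KO. The ranges overlapped, and 4 of 12 KO libraries lay below the lowest WT value. The log2 difference was -0.26 (SE 0.0508, adjusted p = 0.000265, limma), with KO higher at 0 of 6 times. Under median-of-ratios scaling it was -0.41.

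Kcnj16, the partner of Kcnj10, was at 167.8 ± 9.92 TPM in WT and 176.6 ± 13.6 TPM in KO (SD, n = 12 each), a log2 difference of 0.07 (SE 0.0450, adjusted p = 0.167). Its difference under median-of-ratios scaling was -0.08, also short of the threshold, and leaving out KO ZT8 replicate A brought it past the threshold at 0.10 (adjusted p = 0.0358). Clcn5 averaged 15.1 ± 1.32 TPM in WT and 15.2 ± 1.32 TPM in KO, a log2 difference of 0.0093 (SE 0.0433, adjusted p = 0.864). Under median-of-ratios scaling Clcn5 was lower in KO by -0.14 log2 units (adjusted p = 0.00620), so its direction depends on the scaling.

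Kcnma1 was barely expressed, at 0.535 ± 0.105 TPM in WT and 0.377 ± 0.0975 TPM in KO (SD, n = 12 each). Its mean of 0.456 TPM is under the filter of a mean of 1 TPM, so it has no place among the 7 members tested. In a fit of all 24733 genes with no filter it was lower in KO by -0.42 on the log2(TPM + 0.1) scale, which understates the change of low genes (SE 0.121, adjusted p = 0.00988, limma). KO was higher at 1 of 6 times, ZT4, where KO replicate A held 0.542 TPM; the difference was -0.48 without both libraries that stood apart.

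**Figure D1:**
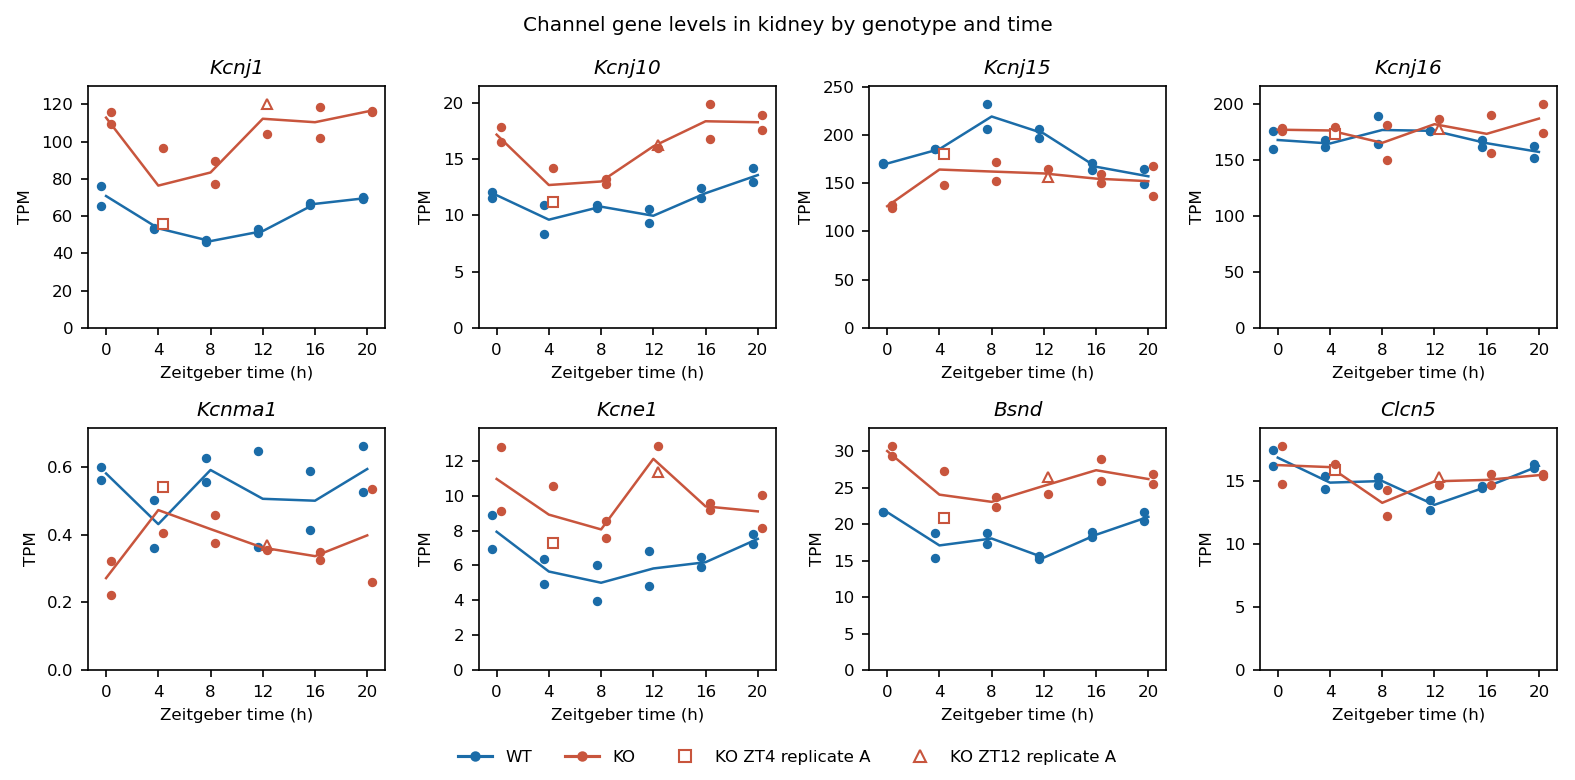
TPM of each of the 8 channel genes (vertical axis, from 0) against zeitgeber time in hours (horizontal axis), for WT and KO. Points are single libraries, lines join the means of 2, and open symbols mark the 2 KO libraries that stood apart. The KO line of Kcnj1 lies above the WT line at every time, and the open square at ZT4 sits at 56.0 TPM, beside the WT libraries.

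The levels can be ordered, since TPM is per length. In WT the order was Kcnj15, Kcnj16, Kcnj1, Bsnd, Clcn5, Kcnj10, Kcne1 and Kcnma1. The ranges of Kcnj15 and Kcnj16, of Bsnd and Clcn5, of Clcn5 and Kcnj10, and of Kcnj10 and Kcne1 overlapped between libraries. Within each WT library, however, Bsnd lay above Clcn5, Clcn5 above Kcnj10 and Kcnj10 above Kcne1. Only Kcnj15 and Kcnj16 changed order from library to library, so those neighbours cannot be placed apart. Kcnj1 and Kcnma1 did not overlap their neighbours. In KO the means of Kcnj16 (176.6 TPM) and Kcnj10 (15.9 TPM) stood above those of Kcnj15 (153.2 TPM) and Clcn5 (15.2 TPM). The ranges again overlapped, and the order within both pairs changed from library to library.

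The difference was then read at each time, with 2 libraries against 2 and the spread shared over the 12 groups. At ZT12, 5 members were called, among 38.2% of all genes: Kcnj1 (1.11 log2 units), Kcne1 (1.06), Bsnd (0.71), Kcnj10 (0.69) and Kcnj15 (-0.33). At ZT0 there were 4, against 13.4% of all genes: Kcnj1, Kcnj10, Bsnd and Kcnj15. At ZT16 there were 3 (21.5%), Kcnj1, Kcnj10 and Bsnd, and at ZT8 Kcnj1 and Kcnj15 (14.6%). At ZT20 only Kcnj1 was called (3.72%). Kcnj1 was therefore called at 5 of 6 times. No gene of the 12874 was called at ZT4 by limma.

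The ZT4 result turned on 1 library. Kcnj1 at ZT4 was 53.3 and 53.6 TPM in WT and 56.0 and 96.7 TPM in KO, so KO replicate A lay within the range of all WT libraries and replicate B above it. Without KO ZT4 replicate A, 4 members were called at ZT4, 4 at ZT8 and 3 at ZT20, and these counts were the same without both libraries that stood apart. Calls over all genes rose as well: without both libraries they made up 14.7% at ZT4, 20.8% at ZT8 and 9.66% at ZT20. The lone KO library at ZT4 is then assumed to vary like the other groups. Without both libraries that stood apart, Kcnj1 had log2 differences of at least 0.68 at 6 of 6 times. At ZT12, with 1 KO library left, Kcnj15 no longer passed (log2 difference -0.29), and the share called over all genes fell there. How the differences between genotypes themselves vary over time was tested only through the rhythm tests.

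**Figure D2:**
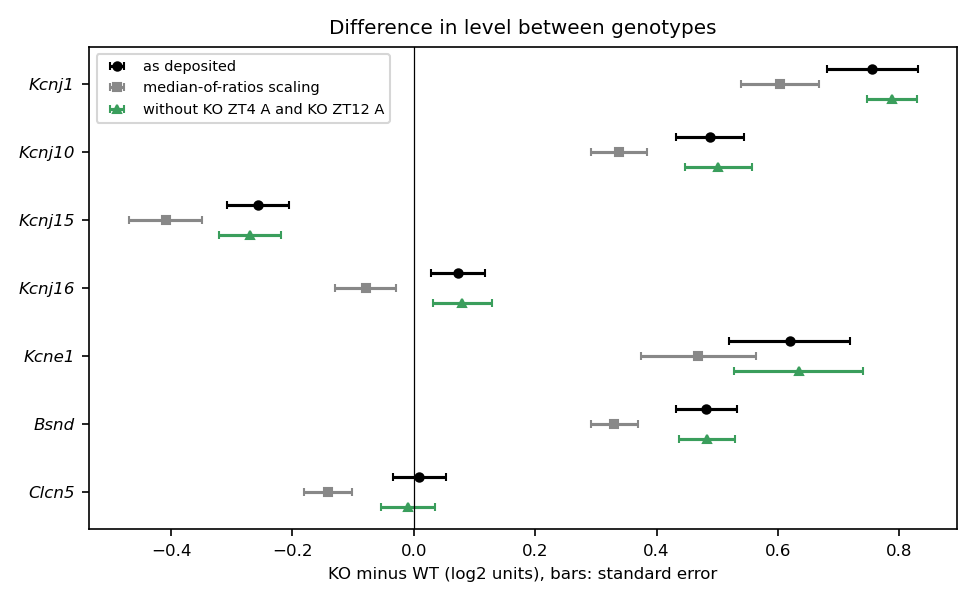
KO minus WT difference in level (horizontal axis, log2 units) for the 7 members tested, with bars for the standard error. Circles are values as deposited, squares are under median-of-ratios scaling, and triangles leave out both KO libraries that stood apart. Kcnj1, Kcnj10, Kcne1 and Bsnd lie above 0 and Kcnj15 below 0 under each, while Clcn5 moves from 0.0093 to -0.14 under the second.

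In WT kidneys, 4 members carried a 24 h rhythm: Kcnj1, Kcnj10, Kcnj15 and Bsnd. Across all genes tested, 13.7% were called by this moderated F test of a cosine. Kcnj1 peaked at 20.4 h with 0.64 log2 units between trough and peak (SE 0.147, adjusted p = 0.0156), from a mean of 46.6 TPM at ZT8 to 70.8 TPM at ZT0. Kcnj10 peaked at 19.6 h (0.41 log2 units, SE 0.112, adjusted p = 0.0435) and Bsnd at 22.1 h (0.41, SE 0.108, adjusted p = 0.0362). Kcnj15 ran nearly opposite, with a peak at 8.44 h (0.45, SE 0.0949, adjusted p = 0.00878), from 157.1 TPM at ZT20 to 219.0 TPM at ZT8. The fitted peaks of Kcnj1, Kcnj10 and Bsnd thus fell between 19.6 and 22.1 h, away from that of Kcnj15.

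Kcne1 and Clcn5 missed the threshold, with 0.63 and 0.29 log2 units between trough and peak and adjusted p-values of 0.0975 and 0.0540. Kcnj16 had 0.14 log2 units and an adjusted p of 0.455. The WT calls were not all firm. Kcnj1 and Kcnj15 kept theirs when any 1 of the 24 libraries was left out, whereas Kcnj10 lost it in 13 of 24 and Bsnd in 7 of 24. Without both libraries that stood apart Clcn5 was called as well (adjusted p = 0.0420), while the WT calls among all 12874 genes went from 1761 to 2559.

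In KO, 2 members were called, against 3.64% of all genes. Kcnj10 peaked at 18.3 h with 0.59 log2 units between trough and peak (SE 0.112, adjusted p = 0.0137), from a mean of 12.7 TPM at ZT4 to 18.3 TPM at ZT16. Kcnj1 peaked at 17.8 h with 0.61 log2 units (SE 0.147, adjusted p = 0.0492), close to the threshold and lost in 19 of 24 leave-outs of 1 library. With both libraries that stood apart left out, both genes were called in KO (Kcnj1 0.45 log2 units, adjusted p = 0.0137; Kcnj10 0.51, adjusted p = 0.0292). The KO peak of Kcnj1 then moved to 19.9 h (SE 0.741), and it was 18.9 h (SE 0.892) without KO ZT4 replicate A alone, while that of Kcnj10 was 19.0 h without both. Kcnj15 had 0.26 log2 units in KO and Bsnd 0.27, with adjusted p-values of 0.224 and 0.260.

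No member passed the test of a difference in rhythm between the genotypes. It called 0 of the 7, with adjusted p-values of 0.511 to 0.854, and 0 at an unadjusted p under 0.05; of all genes, 0.629% were called and 13.7% had an unadjusted p under 0.05. The unadjusted count depends on 1 library: without KO ZT4 replicate A the p of Kcnj15 was 0.0205 (adjusted 0.253), and without both libraries that stood apart it was 0.0197 (adjusted 0.256), against 0.170 with all. A rhythm called in WT alone is therefore not shown to be absent in KO. For Kcnj15 the KO minus WT difference in trough to peak was -0.20 log2 units, and for Bsnd it was -0.14.

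**Figure D3:**
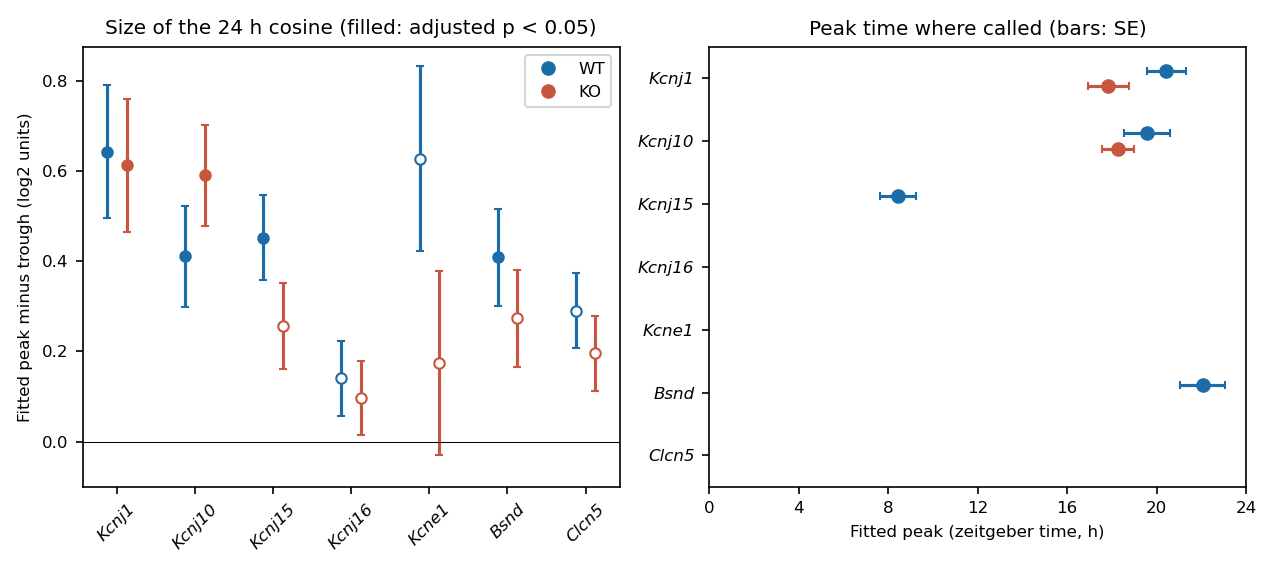
Left, fitted trough to peak (log2 units) of a 24 h cosine for the 7 members tested in WT and KO, with bars for the standard error and filled points where the adjusted p was under 0.05. Right, the fitted peak in zeitgeber hours where called: Kcnj15 sits at 8.44 h and the other called members between 17.8 and 22.1 h.

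Pairs of channel genes were compared as ratios within a library, which do not depend on the scaling of TPM. Kcnj10 with Kcnj16 and Kcne1 with Kcnq1 are subunits of a joint channel, whereas Kcnma1 and Kcnj1 are pores of different potassium channels. Genotype was permuted within each time (46656 arrangements, exact two-sided test, p-values adjusted over 4 ratios, of which 3 are given, smallest possible p 4.29e-05). Kcnj10 over Kcnj16 was at -3.91 ± 0.245 log2 units in WT and -3.49 ± 0.248 in KO (SD, n = 12 each), a rise of 0.42 (exact p = 8.57e-05, adjusted 0.000257). Kcnj16 had the higher TPM of this pair in every library. These are levels of whole kidney, so they do not give the balance of the subunits within a cell type.

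Kcne1 over Kcnq1 was 0.25 log2 units higher in KO (exact p = 0.150, adjusted 0.200), which did not pass. Kcnma1 over Kcnj1 fell by 1.28 on the log2 scale (exact p = 0.000129, adjusted 0.000257), with Kcnma1 near the limit of what was measured. Both ratios that passed also passed in each of the 24 fits without 1 library.

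**Figure D4:**
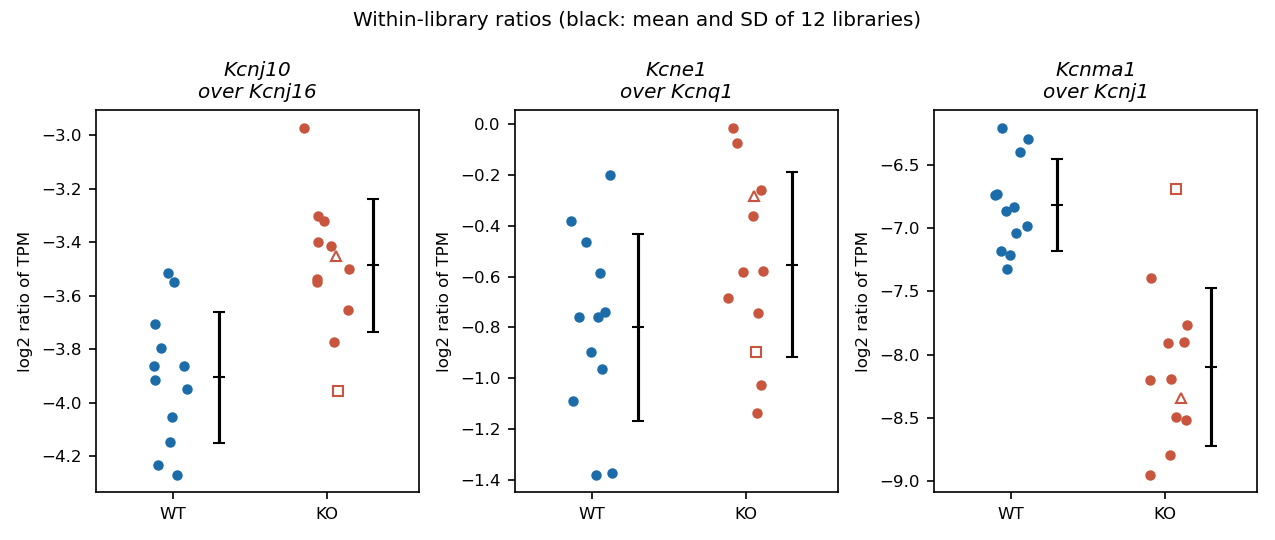
Log2 ratio of TPM within each library for 3 gene pairs, in WT and KO, with the mean and SD of 12 libraries in black and the 2 KO libraries that stood apart as open symbols. Kcnj10 over Kcnj16 sits at -3.91 in WT and -3.49 in KO, while the WT and KO libraries of Kcne1 over Kcnq1 overlap widely.

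The estimated levels of single transcripts were then compared. Kcnj1-201 held 93.3% of the gene's TPM in WT and 94.0% in KO. Both transcripts rose in KO. Kcnj1-201 went from 55.9 ± 8.93 to 95.8 ± 19.3 TPM (0.76 log2 units, SD, n = 12 each). Kcnj1-202 went from 3.98 ± 2.12 to 6.07 ± 1.75 TPM (0.70 log2 units, adjusted p = 0.0279, limma over 26201 transcripts, SD, n = 12 each). Kcnj1-202 also carried a WT rhythm of 1.47 log2 units (adjusted p = 0.0363), while Kcnj1-201 had 0.58 (adjusted p = 0.0593). Isoforms share sequence, so their split is an estimate of kallisto.

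Kcnj15 was spread over 10 transcripts with a mean of at least 1 TPM. Of these, 5 were lower in KO, Kcnj15-201 and Kcnj15-206 among them, and none was higher, among 7.13% of all transcripts lower and 31.9% higher. Kcnj15-206 was the most abundant, at 63.4 ± 6.67 TPM in WT and 56.6 ± 4.95 in KO (SD, n = 12 each), and starts 478 bp downstream of Kcnj15-201. Both had a WT rhythm, Kcnj15-201 with 0.66 log2 units and Kcnj15-206 with 0.37 (adjusted p = 0.0119 and 0.0121); 6.89% of all transcripts were called by that test. Kcne1-201 and Kcne1-202 rose together, by 0.66 and 0.58 log2 units. Kcnj16-202 held 83.5% of Kcnj16 in WT, Clcn5-201 held 94.3% of Clcn5, and neither differed between genotypes beyond the threshold.

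**Figure D5:**
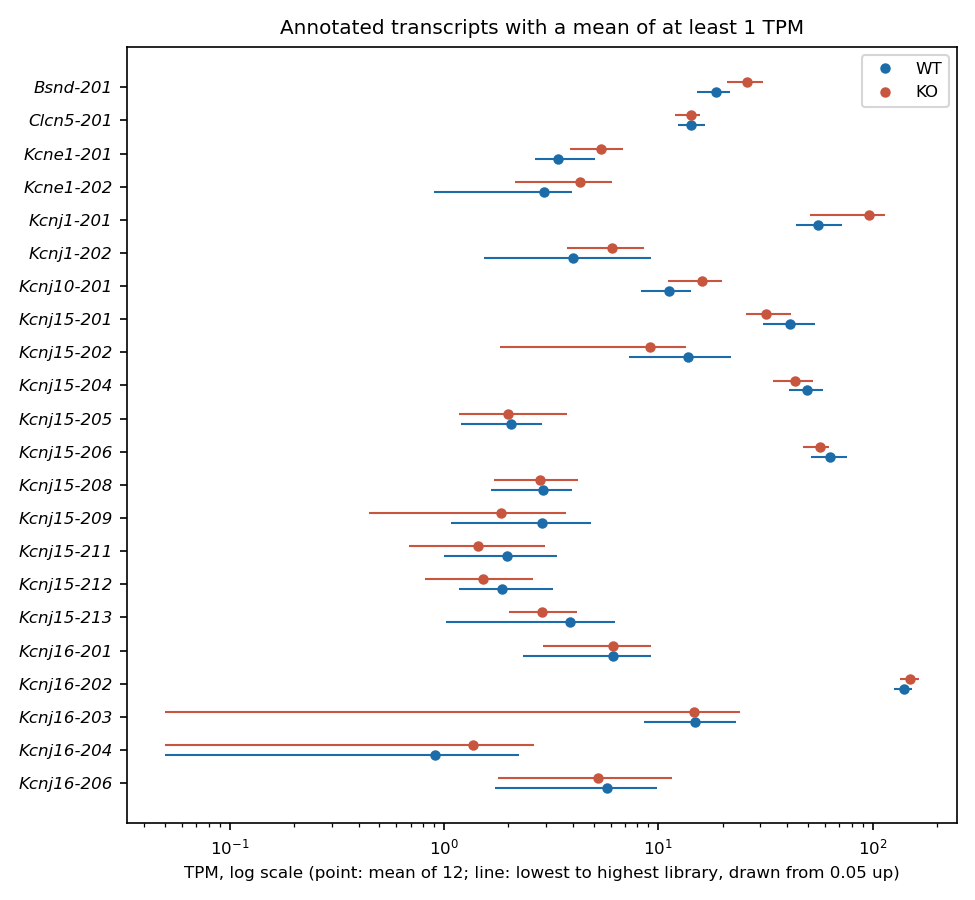
TPM (horizontal axis, log scale) of the member transcripts with a mean of at least 1 TPM in WT and KO. Points are means of 12 libraries and lines run from the lowest to the highest library. Kcnj1-201 lies far above Kcnj1-202 in both genotypes, and both are higher in KO.

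RefSeq windows from 250 bases before to 50 after a gene start were at hand for 6 members, in 10 windows. Bsnd and Kcne1 had none. CACGTG occurred in 7.15% of all 32851 windows, TTANGTAA in 2.32% and TAGGTCA in 2.61%, each on either strand. Among the 10 member windows the single match was a D-box in Kcnj15, shown because it was the only match. It lies on the minus strand at chr16:95257575-95257582, in the first exon of Kcnj15-201, and is printed on the plus strand with the motif's bases in capitals.
Kcnj15, chr16:95257564-95257593: ttgtttatagtTTACTTAAgcaaagggacc
A match of letters is a description and does not show that a factor binds there.

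Of 24 other potassium channel genes listed with earlier results in view, 7 passed the filter. In KO 4 rose and 2 fell, against 50.9% higher and 10.0% lower among all genes tested. The median log2 difference of the 7 was 0.38, against 0.15 over all genes. Kcnk1, a two-pore channel subunit, rose from 15.7 ± 2.58 to 27.4 ± 5.88 TPM (0.79), Kcnj13 rose by 0.64 and Kcnt1 by 0.41. Kcnk5, a pH-sensitive two-pore channel, fell from 40.9 ± 12.9 to 21.6 ± 4.22 TPM (-0.87), and Kcne4 fell by 0.60 (SD, n = 12 each). Under median-of-ratios scaling Kcnk1 alone remained called higher, with 3 lower, against 21.5% and 22.6% of all genes tested. Kcnk5 and Kcnt1 had a WT rhythm (adjusted p = 0.0363 and 0.0247), and Kcnt1 and Kcnj8 one in KO (0.00511 and 0.0486).

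Of 21 other chloride channel genes, 20 were tested. In KO 10 were higher and 2 lower, near the shares of 50.9% and 10.0% over all genes tested. The median log2 difference was 0.11. The cAMP-gated channel gene Cftr rose from 1.33 ± 0.314 to 1.97 ± 0.410 TPM (0.54), while the endosomal and lysosomal exchangers Clcn4 and Clcn7 fell by 0.15 and 0.12. Under median-of-ratios scaling 4 were higher and 7 lower, against 21.5% and 22.6% of all genes tested. Cftr, Clcn4 and Clcn7 kept their directions and calls. Clic4, Clcn2 and Cftr were among 4 with a WT rhythm (adjusted p = 0.000186, 0.000282 and 0.0160), and Clic4 also had one in KO (0.00934).

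Of 10 transport partners, 9 were tested, with 6 higher and 3 lower in KO, against 50.9% and 10.0% of all genes tested. The loop cotransporter Slc12a1 rose from 235.6 ± 18.6 to 395.2 ± 75.6 TPM (0.72) and the distal cotransporter Slc12a3, at 184.0 ± 21.8 TPM in WT, rose by 0.44, and Slc12a4 by 0.39 log2 units. The potassium-chloride cotransporter Slc12a7 fell by 0.30, and Slc12a2 by 0.19 (SD, n = 12 each). Slc12a7 also had a WT rhythm (adjusted p = 0.0274), as 1 of 2 partners called. These 5 kept their calls under median-of-ratios scaling, while Atp1b1 and Fxyd2, higher by 0.22 and 0.17 as deposited, no longer passed.

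Markers of several kidney cell types also differed between the genotypes. All 3 markers of the distal convoluted tubule, 4 of principal cells, 5 of intercalated cells and 3 of podocytes were higher in KO. Other types were less uniform. Smooth muscle and pericyte had 2 of 3 higher, and endothelium and inner medulla 1 of 3 each, with none lower. Of 3 hepatocyte markers 1 was higher and 2 lower, and 0 of 2 leukocyte markers tested were called. Among all genes tested, 50.9% were higher and 10.0% lower in KO. Slc12a1 and Slc12a3 are markers here and were also counted as transport partners above. The summed level of the distal convoluted tubule markers ran from 169.4 to 233.9 TPM in WT and from 176.2 to 320.4 TPM in KO, where KO ZT4 replicate A was the lowest. Of 4 thick ascending limb markers 3 were higher, and Umod, the most abundant, was lower (-0.36, with Slc12a1 at 0.72). Of 6 proximal tubule markers 2 were higher and 1 lower. Under median-of-ratios scaling, 21.5% of all genes tested were higher and 22.6% lower. The distal convoluted tubule then had 2 of 3 higher and the thick ascending limb 2 higher and 1 lower. The proximal tubule had 1 higher and 2 lower, while the principal cell, intercalated cell and podocyte counts were as before. A change in the number of cells of a type and a change in RNA per cell cannot be told apart in bulk kidney. The part of these markers in the channel results was not tested. Leukocyte markers summed to 4.81 to 10.1 TPM in WT and 4.81 to 7.61 TPM in KO, and the 3 adrenal cortex markers together stayed at 1.34 TPM or less in every library.

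The 12 group means gave the genes most like each WT-rhythmic member, as Pearson correlations on the log2 scale across the same libraries. They were Efhd1 (0.994), Rassf6 (0.991) and Spag5 (0.990) for Kcnj1, Vps37c (0.985), Kctd1 (0.972) and Gm28230 (0.9685) for Kcnj10, and Hif1an (0.982), Slc27a4 (0.980) and Pacs2 (0.980) for Bsnd. For Kcnj15 they were Dusp4 (0.9645), Ccdc152 (0.936) and Camk2n2 (0.935). Among the members, Kcnj1 ran with Kcnj10 (0.953), Kcne1 (0.931) and Bsnd (0.927) and against Kcnj15 (-0.8575), while with Clcn5 the value was 0.266. The points span both genotypes and all times, so these values mix the genotype difference with the time course. The part of each was not tested.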

How the data were processed

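Polyadenylated kidney RNA was measured in 24 libraries, grouped by genotype and time from the labels. The authors deposited TPM per transcript, made with kallisto 0.42.4 per the submitters' processing notes, with builds mm10 and GRCm38. TPM columns sum to between 999999 and 1000001, so depth is unknown. The 20 chromatin contact libraries of the series were not used here. Transcripts were summed to genes by Ensembl identifier without version (GENCODE M21): 86119 of 88198 matched, and the unmatched held 1.35% to 2.24% of TPM.

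Values were analysed as log2(TPM + 0.1) for genes averaging 1 TPM or more, with limma 3.58.1 in R 4.3.3 (eBayes with trend and robust options, Benjamini-Hochberg over all genes tested, threshold 0.05). Tests covered genotype with time as a factor, each time, a 24 h cosine per genotype and its difference, and transcripts; the 4 ratios had exact permutation tests. They were checked on simulated data. Alternatives covered pseudocounts, filters, scaling, replicate blocks and left-out libraries. The members and gene lists were chosen with earlier results of these data known, and the sex-biased genes after seeing the data. Named genes were all members, up to 3 per list and direction with the largest called change, up to 3 per list called rhythmic, and the 3 most like each WT-rhythmic member. Some items of the gene lists are not reported here.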

Additional observations from a re-analysis of the deposited data

Results flagged for a closer look

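Clcn5 was flagged because both KO libraries lay above both WT libraries at some times and below them at others. The KO minus WT log2 difference was higher than at ZT8 by 0.29 at ZT4, 0.37 at ZT12 and 0.23 at ZT16. It was higher than at ZT20 by 0.18 at ZT4, 0.26 at ZT12 and 0.12 at ZT16. No test was made of these pairs of times. The test of a difference in rhythm gave an adjusted p of 0.854 (limma), and the same test with time as a 6-level factor gave 0.524.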

How the results depend on the processing

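The genotype count of 5 members stayed between 5 and 6 when each of the 24 libraries was left out in turn. The WT rhythm count of 4 fell to 2 with no filter and after rescaling without mitochondrial genes, and to 0 with time as a 6-level factor; leaving out 1 library gave 2 to 5. The KO rhythm count of 2 fell to 1 with no filter and with plain eBayes. It fell to 0 with time as a 6-level factor and with KO libraries alone, and leaving out 1 library gave 1 to 2. Calls over all genes moved as well when 1 library was left out. They ran from 7410 to 8101 for genotype, 1194 to 2140 for WT rhythm and 272 to 626 for KO rhythm. With all libraries they were 7844, 1761 and 468. Clcn5 reversed to -0.14 (adjusted p = 0.00620) under median-of-ratios scaling. At ZT0 the count of 4 became 2 under that scaling. Without KO ZT4 replicate A, and without both libraries that stood apart (an alternative chosen after seeing the data), the counts were 4 instead of 0 at ZT4, 4 instead of 2 at ZT8 and 3 instead of 1 at ZT20. Over all genes the share called without both went from 0 to 14.7%, from 14.6% to 20.8% and from 3.72% to 9.66%. Transcripts called for WT rhythm went from 3 to 6 with a mean of at least 5 TPM and without KO ZT4 replicate A, and for KO rhythm from 1 to 2 and to 0. At ZT12 the share called over all genes fell without both libraries. All-gene rhythm shares under the filter, scaling, eBayes and time settings are not given here. Nor are those of all transcripts, or that at ZT0 under median-of-ratios scaling. The member counts alone therefore do not show a change particular to the channel genes. The cause was not tested, except that fewer genes or samples enter some of these fits.

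The labels give the replicate letters no shared source, and deviations of same-lettered libraries correlated at -0.32 to 0.34 over 66 pairs of groups, over 0.1 in 21. Within WT they correlated at 0.03 to 0.34, over 0.1 in 14 of 15 pairs, so WT libraries of 1 letter tended to deviate together. Within KO this held for 2 of 15 and between genotypes for 5 of 36, so the letters were not taken as pairs. With the replicate block, over all libraries or within genotype, the WT rhythm count stayed at 4 and the KO rhythm count was 1 instead of 2, since Kcnj1 had adjusted p-values of 0.0543 and 0.0637. TPM gives no depth, so precision at low levels such as Kcnma1 is unknown.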
